A study of Mus musculus with 20 samples.

Results

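Peripheral blood of mice lacking the tyrosine kinase Lyn (Lyn-/-) was set against that of WT mice, 4 mice of each genotype. These 8 libraries were taken, by the genotype in their labels, from a table of 20 libraries, whose other 12 came from Lyn-/- mice that also carried a mutation of Ifnar1 or Irf5. All mice were female, had a C57BL/6 background and were 22 to 23 weeks old, and no treatment was given to either group. The WT mice (C57BL/6JJcl) were bought from a supplier and the Lyn-/- line was not, so the genotype and the colony cannot be told apart. RNA was prepared from 5 mice of each strain, of which the labels hold 4 samples, and these are labelled only as separate samples, so the tests measure the spread between them. The Lyn-/- mice served as a model of systemic lupus erythematosus (SLE), and the comparison asks which transcripts of the blood differ in that model. Total RNA of stabilized whole blood was sequenced, so every value is a sum over red cells, platelets and leukocytes. Levels are given as RPKM, read counts divided by gene length and library size, scaled between libraries by the authors. A gene entered the comparison when 4 or more of the 8 mice had 1 RPKM or more, which kept 8234 of the 9228 listed genes.

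Lyn is a member of the Src family, kinases that phosphorylate the signalling motifs of antigen and Fc receptors in B cells and myeloid cells. Lyn can start activating signals, but it is also the kinase that phosphorylates inhibitory receptors such as CD22, which then recruit the phosphatases SHP-1 (encoded by Ptpn6) and SHIP-1 (encoded by Inpp5d). Mice without Lyn are known to form autoantibodies and to develop a lupus-like disease with age, with few mature B cells and an expansion of myeloid cells. Type I IFN, acting through the receptor chain IFNAR1, induces the IFN-stimulated genes (ISGs) that mark the blood of many patients with SLE.

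The deposited values held whole reads of each gene, which were recovered as the smallest numbers that are whole in all libraries. They summed to 3039432 to 3294503 reads per WT mouse and 2900857 to 3634767 reads per Lyn-/- mouse. In these sums 6 very abundant genes, Beta-s first among them, took 49.8% to 56% of the reads of a WT mouse and 42.9% to 49.2% of those of a Lyn-/- mouse. The median of the other 9222 genes held 32 to 49 reads in a WT mouse and 23 to 39 in a Lyn-/- mouse. The hemoglobin genes found in the table were 3, Beta-s, Hbq1a and Hbq1b, without the alpha chain genes Hba-a1 and Hba-a2. They took 65.5% to 69.0% of the RPKM of a WT mouse and 55.5% to 61.3% of that of a Lyn-/- mouse. Nearly all of this was Beta-s (65.498% of 65.517% in WT mouse 1). Where hemoglobin is left out of a scaling, these 3 genes are meant. Over log2(RPKM + 0.5) the libraries correlated at 0.975 to 0.982 within WT, at 0.941 to 0.978 within Lyn-/- and at 0.884 to 0.932 between genotypes. Of the 8234 genes, 3041 (36.9%) passed an adjusted p of 0.05 in limma with Benjamini-Hochberg adjustment over all of them, 1681 higher (20.4%) and 1360 lower (16.5%) in Lyn-/- mice. All adjusted p given are of this test, fold changes are on the scale of log2(RPKM + 0.5), and rose, fell and called refer to it. In 2942 genes (35.7%) the mice of the genotypes did not overlap, with every Lyn-/- mouse above every WT mouse in 1553 (18.9%) and below in 1389 (16.9%). A log2 fold change of 1 in size was reached by 803 higher and 301 lower calls, one of 2 by 125 and 63, and one of 3 by 9 and 13. Over all genes tested, the median of the log2 fold changes was -0.02. It moved to -0.24 when every library was set to the same RPKM sum and to -0.53 when hemoglobin was left out of that sum, so that 645 genes were called higher and 773 lower under all 4 scalings tried. Of the genes named in the following, Bcl6, Cd180, Cd244, Clec12a, Ctss, Dok1, Ifitm1, Ifnar2, Irf5, Igtp, Lrg1, Wfdc17, Xbp1, Zbp1, Abcg1, Csf3r and Pou2f2 were no longer called under 1 or both of these equal sums.

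Lyn itself, on chromosome 4 (3678068 to 3791612 of GRCm38.p6), stood at 36.5, 32.4, 36.9 and 32.5 RPKM in the WT mice and 10.2, 8.4, 9.49 and 11.9 RPKM in the Lyn-/- mice (mice 1 to 4, the order used throughout). Every Lyn-/- mouse lay below every WT mouse (log2 fold change -1.75, SE 0.14, adjusted p = 6.23e-06, exact two-sided permutation test over the 8 mice p = 0.0286, the smallest that 4 against 4 allows). Reads from any part of the gene count towards it, and the extent of the deletion is not given in the sources used here, so the remaining RPKM are no measure of protein. Of the 15 tested genes that start within 10 Mb of Lyn, 0 rose and 3 fell at the same threshold (20.0%, beside 36.9% of all genes).

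The other Src family kinases split by the cells that carry them. In whole blood, fewer cells of a type and less RNA per cell cannot be told apart. Blk, the family member of B cells, stood at 21.4, 17.5, 16.3 and 17.6 RPKM in the WT mice and 3.01, 2.31, 1.95 and 1.24 RPKM in the Lyn-/- mice, and the groups did not overlap (log2 fold change -2.87, SE 0.20, adjusted p = 3.23e-06). Fgr, which acts in neutrophils and monocytes, stood at 10.8, 14, 12 and 8.73 RPKM in the WT mice and 75.7, 49.4, 50.3 and 46.7 RPKM in the Lyn-/- mice (log2 fold change 2.23, SE 0.19, adjusted p = 1.07e-05). The lowest Lyn-/- mouse stood well above the highest WT mouse, and mouse 1 was the highest. Lck, the kinase of T cells, ranged over 29.8 to 41.8 RPKM in WT and 17.1 to 32.3 RPKM in Lyn-/- mice and was not called (log2 fold change -0.49, adjusted p = 0.0717). Fyn, which T cells share with other cells, stood at 12.6 to 15.8 RPKM in WT and 15.9 to 19.8 RPKM in Lyn-/- mice and was not called (log2 fold change 0.26, adjusted p = 0.141). Csk, the kinase that switches the family off, overlapped between genotypes at 45.7 to 52.9 RPKM in WT and 42.3 to 54 RPKM in Lyn-/- mice (log2 fold change -0.13, adjusted p = 0.449).

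**Figure D1:**
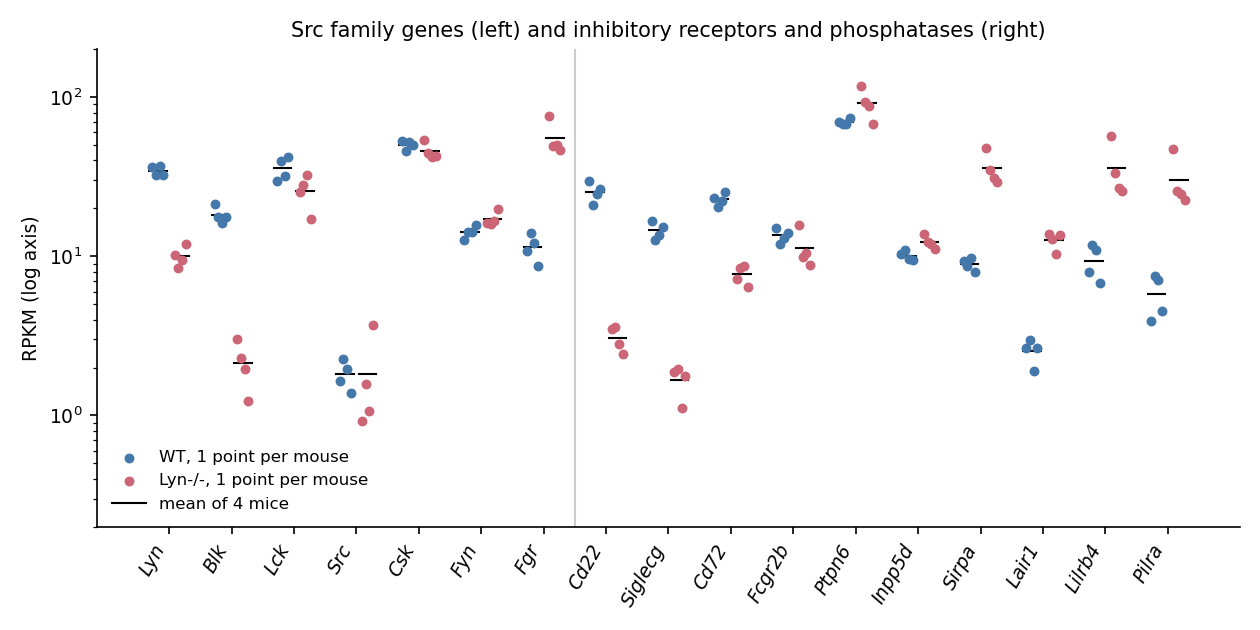
RPKM on a log axis in each of the 4 WT and 4 Lyn-/- mice for 7 genes of the Src family list (left of the line) and 10 of the inhibitory receptors and phosphatases (right); points are mice and bars are means of 4 mice. Lyn and the B cell genes Blk, Cd22 and Siglecg are lower in every Lyn-/- mouse, while Fgr, Sirpa, Lair1, Lilrb4 and Pilra are higher in every one.

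The receptors through which Lyn restrains cells divided in the same way. Of 27 tested inhibitory receptors and phosphatases 3 fell, 14 rose and 10 were not called, with a median log2 fold change of 0.98. The 3 that fell are receptors of B cells. Cd22 stood at 29.5, 21.1, 24.7 and 26.6 RPKM in the WT mice and 3.51, 3.57, 2.8 and 2.43 RPKM in the Lyn-/- mice (log2 fold change -2.86, SE 0.16, adjusted p = 8.16e-07). Siglecg, a sialic acid receptor of B cells, stood at 12.7 to 16.6 RPKM in WT and 1.11 to 1.95 RPKM in Lyn-/- mice, -2.80 on the log2 scale (adjusted p = 1.17e-06). Cd72, a coreceptor of the B cell receptor, stood at 20.3 to 25.5 RPKM in WT and 6.4 to 8.72 RPKM in Lyn-/- mice (log2 fold change -1.51, adjusted p = 2.19e-05). The receptors that rose are carried mainly by myeloid cells. Pilra, a paired receptor of myeloid cells, stood at 3.94, 7.54, 7.07 and 4.55 RPKM in the WT mice and 47.3, 25.7, 24.7 and 22.6 RPKM in the Lyn-/- mice (log2 fold change 2.26, SE 0.26, adjusted p = 9.2e-05). Lair1, a collagen receptor, stood at 2.65, 2.99, 1.89 and 2.67 RPKM in the WT mice and 13.7, 12.9, 10.3 and 13.6 RPKM in the Lyn-/- mice (log2 fold change 2.11, SE 0.16, adjusted p = 4.91e-06). Sirpa, the receptor for the self signal CD47, stood at 9.29, 8.75, 9.75 and 7.91 RPKM in the WT mice and 47.6, 34.9, 30.8 and 29.2 RPKM in the Lyn-/- mice (log2 fold change 1.92, SE 0.17, adjusted p = 1.19e-05). The groups of mice did not overlap for any of these. Lilrb4 (log2 fold change 1.83, adjusted p = 0.000338) and its near-identical neighbour Gp49a (log2 fold change 1.67, adjusted p = 0.00135), between which reads may be shared, rose as well. So did Lilrb3 (log2 fold change 1.52, adjusted p = 0.00164), Siglece (log2 fold change 1.85, adjusted p = 0.00302), Cd300a (log2 fold change 1.75, adjusted p = 1.77e-05), Ceacam1 (log2 fold change 1.33, adjusted p = 4.76e-05) and Clec12a (log2 fold change 1.33, adjusted p = 0.00064). Lyn-/- mouse 1 had the highest and mouse 4 the lowest level in 10 of the 14 genes that rose (71.4%), beside 19.7% of all genes called higher.

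The phosphatases that these receptors recruit were not called. Ptpn6 stood at 69.97, 67.9, 68 and 73.6 RPKM in the WT mice and 118, 92.6, 88.1 and 68.2 RPKM in the Lyn-/- mice, with mouse 4 inside the WT range (log2 fold change 0.36, SE 0.17, adjusted p = 0.107). Inpp5d ranged over 9.54 to 11 RPKM in WT and 11.2 to 13.7 RPKM in Lyn-/- mice without overlap, but was not called (log2 fold change 0.26, adjusted p = 0.123). Fcgr2b, the inhibitory Fc receptor that B cells and myeloid cells both carry, was not called either, at 11.9 to 15.1 RPKM in WT and 8.76 to 15.7 RPKM in Lyn-/- mice (log2 fold change -0.29, adjusted p = 0.228). The docking protein Dok1 was the 1 intracellular member of the list that rose, at 8.11 to 10.5 RPKM in WT and 15.1 to 24.2 RPKM in Lyn-/- mice (log2 fold change 0.92, adjusted p = 0.00202).

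Kinases and adaptors of receptor signalling, the activating side, likewise moved both ways, 7 up and 9 down of 24. Adaptors of the B cell receptor fell furthest. Blnk, the scaffold that links Syk to its targets in B cells, stood at 19.9, 13.9, 17.3 and 17.9 RPKM in the WT mice and 1.71, 1.47, 1.97 and 0.625 RPKM in the Lyn-/- mice (log2 fold change -3.24, SE 0.23, adjusted p = 3.5e-06). Bank1, a B cell scaffold in which variants are linked to SLE, stood at 18.8 to 27.1 RPKM in WT and 2.21 to 3.1 RPKM in Lyn-/- mice (log2 fold change -2.89, adjusted p = 8.16e-07). The kinases Syk (log2 fold change -0.62, adjusted p = 0.00922) and Btk (log2 fold change -0.79, adjusted p = 0.0047), which B cells share with myeloid cells, fell by less. On the myeloid side, Card9, which passes on signals of C-type lectins, stood at 1.03 to 3.62 RPKM in WT and 7.28 to 17.6 RPKM in Lyn-/- mice (log2 fold change 2.05, adjusted p = 0.000594). The signalling subunit Fcer1g stood at 132, 139, 153 and 131 RPKM in the WT mice and 572, 453, 406 and 399.8 RPKM in the Lyn-/- mice (log2 fold change 1.71, SE 0.16, adjusted p = 1.87e-05). Tyrobp (DAP12) stood at 101 to 125 RPKM in WT and 252 to 523 RPKM in Lyn-/- mice (log2 fold change 1.53, adjusted p = 0.00044). No mouse of these adaptors crossed into the other genotype's range.

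B cell transcripts had the lowest median of all gene lists examined. Of 20 tested genes of the B cell receptor and its coreceptors 18 fell and 1 rose, with a median log2 fold change of -2.91 (-3.45 to -2.89 over the 4 scalings). Cd79a, a signalling chain of the B cell receptor, stood at 219.7, 168, 166 and 193 RPKM in the WT mice and 26, 24.5, 19 and 15.5 RPKM in the Lyn-/- mice (log2 fold change -3.13, SE 0.18, adjusted p = 9.74e-07). Tnfrsf13c, the BAFF receptor on which survival of mature B cells depends, stood at 25.1, 16, 23 and 21.2 RPKM in the WT mice and 1.16, 1.15, 1.27 and 0.917 RPKM in the Lyn-/- mice and was the gene with the largest fall of all named genes (log2 fold change -3.74, SE 0.16, adjusted p = 8.16e-07). Cr2 (CD21), the complement receptor of mature B cells, stood at 7.94, 5.82, 5.3 and 7.37 RPKM in WT mice and was at 0 RPKM in Lyn-/- mice 1 and 4, with 0.142 and 0.111 RPKM in mice 2 and 3 (log2 fold change -3.65, SE 0.18, adjusted p = 8.16e-07). All these levels were separated between the genotypes with no mouse in between.

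The fall was uneven within the B cell genes. Fcer2a (CD23) and Ly6d fell by 3.50 and 3.56 on the log2 scale (adjusted p = 8.16e-07 and 8.16e-07), and the chemokine receptor Cxcr5, which guides B cells into follicles, fell by 2.99 (adjusted p = 1.32e-06). Tnfrsf13b (TACI), the other receptor of BAFF on these cells, stood at 8.87, 6.21, 7.54 and 13.2 RPKM in the WT mice and 2.94, 4.11, 3.68 and 4.08 RPKM in the Lyn-/- mice (log2 fold change -1.13, SE 0.21, adjusted p = 0.00215). Whether the falls of these receptors differ was not tested. The BAFF transcript Tnfsf13b went the other way, at 0.158 to 0.515 RPKM in WT and 1.02 to 1.78 RPKM in Lyn-/- mice (log2 fold change 1.28, adjusted p = 0.00082). Cd180 (RP105), a Toll-like receptor homologue of B cells and myeloid cells, was the 1 gene of the list that rose, at 9.35, 7.01, 7.0 and 7.36 RPKM in the WT mice and 14.6, 15.9, 10.1 and 12.6 RPKM in the Lyn-/- mice (log2 fold change 0.74, SE 0.17, adjusted p = 0.00581). Cd81, a membrane protein that many cells share, was not called at 38.9 to 48.2 RPKM in WT and 25.4 to 47.2 RPKM in Lyn-/- mice (log2 fold change -0.30, adjusted p = 0.209).

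Transcription factors of B cells followed, with 16 of 20 lower and 2 higher. Pax5, which holds the B cell program, stood at 17.6, 15.4, 19.8 and 16.6 RPKM in the WT mice and 1.82, 2.55, 2.29 and 0.362 RPKM in the Lyn-/- mice (log2 fold change -3.13, SE 0.34, adjusted p = 5.42e-05), and Lyn-/- mouse 4 held less than the other 3. Ebf1 fell at 3.5 to 6.56 RPKM in WT and 0.196 to 1.17 RPKM in Lyn-/- mice (log2 fold change -2.43, adjusted p = 7.34e-05). Spib stood at 32.3 to 39.1 RPKM in WT and 2.48 to 4.35 RPKM in Lyn-/- mice (log2 fold change -3.09, adjusted p = 8.16e-07). Factors that T cells also use fell by smaller steps, Foxo1 by 0.85 and Ikzf3 by 0.94 on the log2 scale (adjusted p = 0.00152 and 0.000657). The 2 that rose were Bcl6, a repressor that germinal centre B cells, T cells and monocytes use (5.74 to 8.15 RPKM in WT and 10.5 to 17.3 RPKM in Lyn-/- mice, log2 fold change 0.94, adjusted p = 0.00207), and Pou2f2, whose groups overlapped (log2 fold change 0.41, adjusted p = 0.0474, adjusted p of 0.0259 to 0.118 with 1 mouse left out).

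Genes of plasma cells moved less as a list, with 6 lower and 1 higher of 15 tested. Igj, the joining chain of secreted antibody, stood at 2.16 to 5.17 RPKM in WT and 0.208 to 0.492 RPKM in Lyn-/- mice (log2 fold change -2.35, adjusted p = 4.27e-05). Mzb1, a chaperone of immunoglobulin in B and plasma cells, stood at 15.1 to 19.8 RPKM in WT and 1.45 to 4.56 RPKM in Lyn-/- mice (log2 fold change -2.46, adjusted p = 3.47e-05). Xbp1, a secretory factor that many cells use, was the 1 that rose, at 7.78 to 13.8 RPKM in WT and 19.8 to 29.8 RPKM in Lyn-/- mice (log2 fold change 1.05, adjusted p = 0.00189). Sdc1 (CD138), which defines plasma cells, did not reach the filter, at 0.286 to 1.05 RPKM over the 8 mice.

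MHC class II genes, through which B cells, monocytes and dendritic cells present antigen, fell with the B cell genes. Of 16 tested, 12 fell and 1 rose, with a median log2 fold change of -2.21. Cd74, the invariant chain, stood at 1426, 1100.3, 1142 and 1248 RPKM in the WT mice and 227, 192, 206 and 185 RPKM in the Lyn-/- mice (log2 fold change -2.60, SE 0.16, adjusted p = 1.17e-06). Ciita, the transactivator of the class II genes, stood at 10.1, 6.6, 8.18 and 6.68 RPKM in the WT mice and 1.55, 1.62, 1.15 and 0.998 RPKM in the Lyn-/- mice (log2 fold change -2.19, SE 0.18, adjusted p = 9.43e-06). H2-Ob, a subunit of the peptide-editing inhibitor of B cells, fell, at 39 to 59.3 RPKM in WT and 4.09 to 8.05 RPKM in Lyn-/- mice (log2 fold change -2.92, adjusted p = 2.56e-06). The 2 genes for the DM beta chain both fell, with log2 fold changes of -3.37 for H2-DMb2 and -1.10 for H2-DMb1 (adjusted p = 9.91e-07 and 0.000324, the difference between them not tested). Ctss, the protease that trims the invariant chain and that phagocytes use widely, rose at 113 to 150.1 RPKM in WT and 235 to 329.7 RPKM in Lyn-/- mice (log2 fold change 1.09, adjusted p = 0.000403). The thiol reductase Ifi30 was not called (log2 fold change 0.25, adjusted p = 0.316). MHC class I genes showed no such shift, with a median of -0.05. Of these 21 genes 5 were higher and 1 lower, beside 20.4% and 16.5% of all genes tested.

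**Figure D2:**
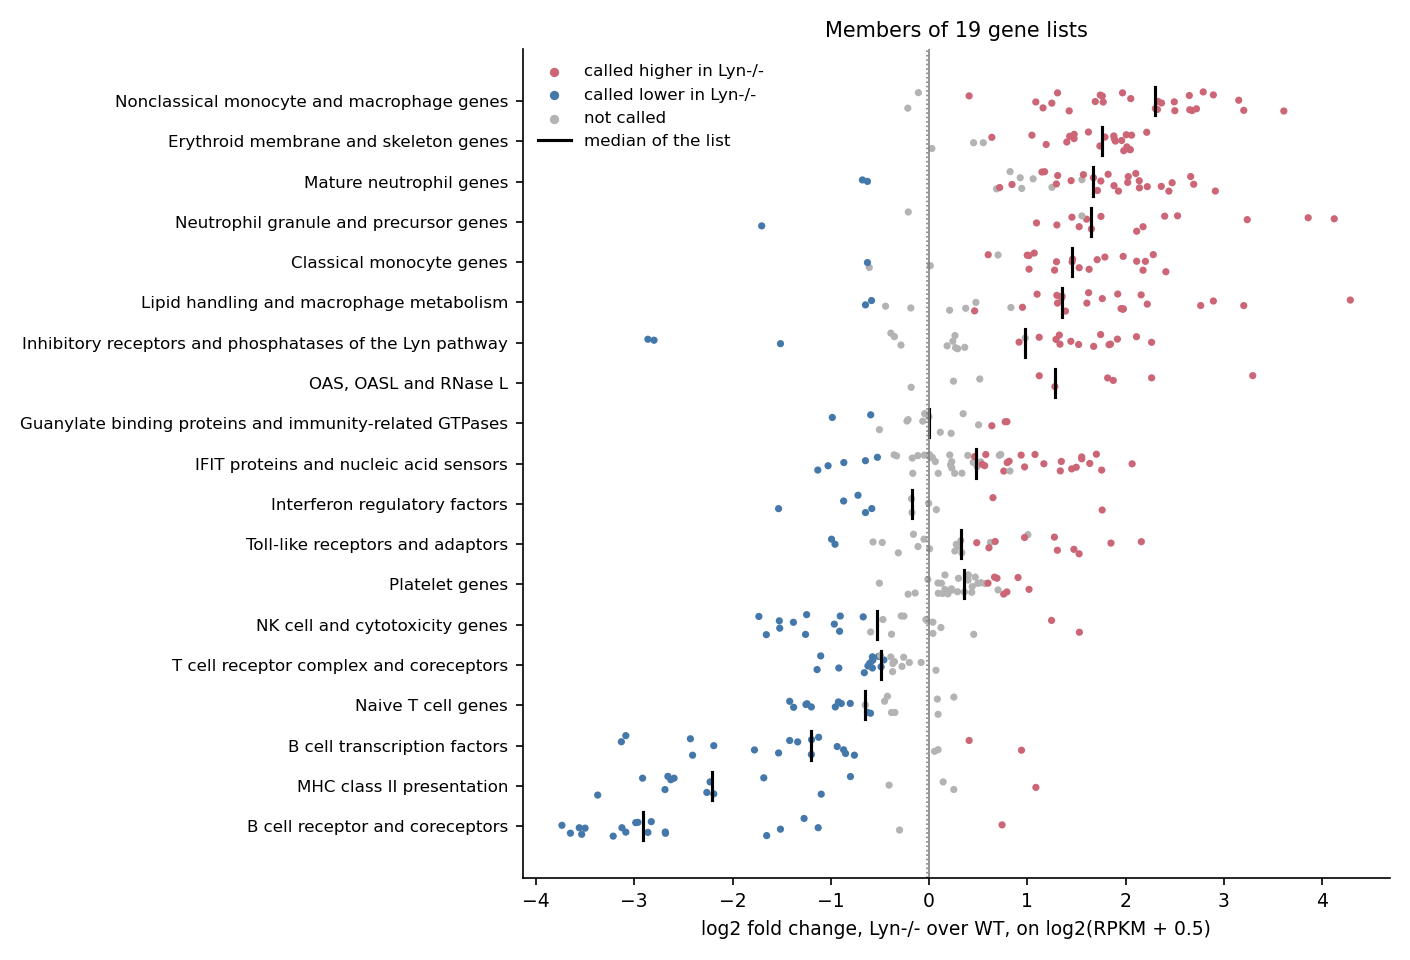
Log2 fold change of Lyn-/- over WT (x axis, on log2(RPKM + 0.5)) for the tested members of 19 gene lists (rows); each point is a gene, coloured by its call, and black bars are list medians. Most B cell receptor, class II and B cell transcription factor genes lie left of 0, while most nonclassical monocyte, erythroid skeleton, neutrophil and lipid handling genes lie right of it.

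Monocyte genes rose, most of all those of nonclassical monocytes, the patrolling subset that depends on the factor NR4A1. Of 29 tested genes of these cells and of macrophages 27 rose and 0 fell, and 24 were called higher under all 4 scalings. Their median log2 fold change was 2.30. Nr4a1 itself stood at 7.53, 9.18, 7.92 and 8.22 RPKM in the WT mice and 48.5, 48.7, 47.8 and 49.8 RPKM in the Lyn-/- mice (log2 fold change 2.50, SE 0.12, adjusted p = 8.16e-07). Its 4 Lyn-/- values lay close to each other and far from the WT range. Treml4, a receptor of these monocytes, stood at 7.12, 10.3, 11.8 and 10.6 RPKM in the WT mice and 69.9, 64.3, 73 and 63.1 RPKM in the Lyn-/- mice (log2 fold change 2.72, SE 0.16, adjusted p = 9.91e-07). Ace, the angiotensin converting enzyme that also marks them, stood at 5.44, 7.02, 7.82 and 7.4 RPKM in the WT mice and 49.7, 35.4, 40.3 and 39.7 RPKM in the Lyn-/- mice (log2 fold change 2.50, SE 0.16, adjusted p = 1.32e-06). All 4 Lyn-/- mice were likewise above the WT range in Cd300e, an activating receptor of monocytes, at 5.81, 8.82, 8.36 and 9.89 RPKM in the WT mice and 72.5, 54.9, 54.7 and 54.9 RPKM in the Lyn-/- mice (log2 fold change 2.79, SE 0.18, adjusted p = 1.42e-06). The largest rise of the list was that of Dpep2, a dipeptidase that cleaves leukotrienes, at 1.13, 1.15, 1.32 and 0.758 RPKM in the WT mice and 25.7, 17.9, 16.6 and 16.1 RPKM in the Lyn-/- mice (log2 fold change 3.61, SE 0.18, adjusted p = 8.16e-07). The levels varied little among Lyn-/- mice, where the median SD of log2(RPKM + 0.5) over the list was 0.21, beside 0.29 over all genes tested. Maf and Cd9 of this list were not called (log2 fold change -0.11, adjusted p = 0.767, and log2 fold change -0.22, adjusted p = 0.546). Platelets also carry Cd9, whose whole-blood level was 591 to 1415 RPKM in Lyn-/- mice, and their part in it was not tested.

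Classical monocyte genes rose by smaller steps, 19 of 23 genes with a median log2 fold change of 1.46, and 1 fell. Ccr2, the receptor that brings these cells out of the marrow, stood at 10.4, 5.84, 6.21 and 6.71 RPKM in the WT mice and 29.2, 18.6, 20.00 and 15.8 RPKM in the Lyn-/- mice (log2 fold change 1.46, SE 0.22, adjusted p = 0.00053). Ly6c2, which marks them, stood at 50.4, 44.7, 34.9 and 41.1 RPKM in the WT mice and 119, 99.4, 99.5 and 97.7 RPKM in the Lyn-/- mice (log2 fold change 1.28, SE 0.15, adjusted p = 9.26e-05). Lysozyme (Lyz2), which neutrophils share, stood at 739 to 829 RPKM in WT and 2083 to 2901 RPKM in Lyn-/- mice (log2 fold change 1.53, adjusted p = 0.000116). Every Lyn-/- mouse was above every WT mouse in each of these 3 genes. Whether the 2 monocyte lists differ in their rise was not tested. Transcription factors of the myeloid line rose with them, Cebpb at 12.1 to 20.7 RPKM in WT and 92.5 to 108 RPKM in Lyn-/- mice (log2 fold change 2.59, adjusted p = 3e-06). Klf4, which monocytes need, stood at 3.28 to 3.69 RPKM in WT and 12.9 to 14.6 RPKM in Lyn-/- mice (log2 fold change 1.87, adjusted p = 1.78e-06). Of the 6 markers listed for conventional dendritic cells and the 8 for tissue macrophages 0 were tested.

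Genes of lipid handling, which macrophages and nonclassical monocytes use, rose in 21 of 29 cases and fell in 2. The nuclear receptor Pparg stood at 1.01, 0.44, 0.838 and 0.27 RPKM in the WT mice and 5.83, 4.66, 5.39 and 4.85 RPKM in the Lyn-/- mice (log2 fold change 2.37, SE 0.22, adjusted p = 1.8e-05). Nr1h3 (LXR alpha), the sensor of oxysterols, stood at 0.109, 0, 0.163 and 0.657 RPKM in the WT mice and 4.47, 4.11, 4.75 and 3.65 RPKM in the Lyn-/- mice (log2 fold change 2.76, SE 0.24, adjusted p = 1.34e-05), so that it was near 0 in WT blood and above 3 RPKM in every Lyn-/- mouse. Among genes these receptors are known to induce, Fabp4 stood at 3.46, 2.27, 3.63 and 3.76 RPKM in the WT mice and 30.5, 19.9, 26.9 and 33.4 RPKM in the Lyn-/- mice (log2 fold change 2.89, SE 0.20, adjusted p = 2.09e-06). Apoc2 stood at 11.6, 7.39, 5.27 and 4.24 RPKM in the WT mice and 83, 69.7, 54.7 and 57.5 RPKM in the Lyn-/- mice (log2 fold change 3.203, SE 0.26, adjusted p = 8.21e-06). The lipoprotein lipase Lpl rose (log2 fold change 1.62, adjusted p = 0.000297), as did the scavenger receptor Scarb1 (log2 fold change 2.16, adjusted p = 6.08e-06). Abca1, a cholesterol exporter that LXR also induces, fell instead, at 1.12 to 1.62 RPKM in WT and 0.596 to 0.815 RPKM in Lyn-/- mice (log2 fold change -0.65, adjusted p = 0.0131). Abcg1 rose slightly (log2 fold change 0.46, adjusted p = 0.03, adjusted p of 0.0197 to 0.0968 with 1 mouse left out). Srebf2, the factor for cholesterol synthesis, fell (log2 fold change -0.59, adjusted p = 0.00494). Scd1, a desaturase of fatty acid synthesis outside this list, had the second largest fall of all named genes, at 35.8, 26.6, 29.8 and 32.1 RPKM in the WT mice and 1.71, 2.73, 2.43 and 1.36 RPKM in the Lyn-/- mice (log2 fold change -3.65, SE 0.19, adjusted p = 8.16e-07).

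Receptors that detect immune complexes, nucleic acids and microbes moved in part. Of 6 tested genes of activating Fc receptors, 5 rose and 0 fell. Fcgr4, a receptor for IgG2 antibodies, stood at 9.41, 9.32, 9.04 and 8.99 RPKM in the WT mice and 56.9, 33.4, 36.4 and 44.7 RPKM in the Lyn-/- mice (log2 fold change 2.13, SE 0.17, adjusted p = 5.88e-06). Fcgr1, the high-affinity receptor, stood at 0.686, 0.788, 0.385 and 0.62 RPKM in the WT mice and 3.94, 5.27, 3.87 and 5.57 RPKM in the Lyn-/- mice (log2 fold change 2.202, SE 0.18, adjusted p = 9.03e-06). Trim21, a cytosolic antibody receptor of many cells, was not called (log2 fold change -0.33, adjusted p = 0.281).

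Of 26 Toll-like receptors and adaptors 10 rose and 2 fell. The list median was 0.33 and turned to -0.08 with hemoglobin left out of the scaling, still above the -0.53 of all genes there. Tlr7, the receptor for single-stranded RNA that signals to IRF5, stood at 3.61, 2.88, 2.57 and 2.93 RPKM in the WT mice and 10.7, 7.64, 6.45 and 7.47 RPKM in the Lyn-/- mice (log2 fold change 1.28, SE 0.17, adjusted p = 0.000272). Tlr13, which reads bacterial ribosomal RNA, stood at 2.38, 3.12, 3.31 and 2.2 RPKM in the WT mice and 19.4, 12.8, 11.8 and 12.6 RPKM in the Lyn-/- mice (log2 fold change 2.16, SE 0.19, adjusted p = 1.28e-05). Tlr8 stood at 0.339 to 0.922 RPKM in WT and 1.94 to 3.2 RPKM in Lyn-/- mice (log2 fold change 1.47, adjusted p = 0.000397). Tlr9, the receptor for CpG DNA that mouse B cells also carry, fell at 2.56, 2.85, 2.49 and 2.85 RPKM in the WT mice and 0.953, 1.39, 0.994 and 1.26 RPKM in the Lyn-/- mice (log2 fold change -0.96, SE 0.15, adjusted p = 0.000825). Tlr1 fell too (log2 fold change -0.99, adjusted p = 0.0018). The chaperone Unc93b1, which these endosomal receptors need, was not called (log2 fold change -0.11, adjusted p = 0.61), nor was the lysosomal transporter Slc15a4 (log2 fold change -0.05, adjusted p = 0.811). Its relative Slc15a3 rose at 1.56 to 1.99 RPKM in WT and 6.62 to 11.4 RPKM in Lyn-/- mice (log2 fold change 1.85, adjusted p = 3.08e-05).

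Complement genes rose in 9 of 12 cases and fell in 3. Cfb, factor B of the alternative pathway, stood at 0.0808, 0, 0.121 and 0 RPKM in the WT mice and 2.51, 3.2, 4.02 and 2.86 RPKM in the Lyn-/- mice (log2 fold change 2.72, SE 0.18, adjusted p = 2.02e-06). C3, which it activates, stood at 1.69, 2.04, 1.75 and 2.29 RPKM in the WT mice and 13.6, 11.1, 13.2 and 13.1 RPKM in the Lyn-/- mice (log2 fold change 2.44, SE 0.14, adjusted p = 9.74e-07). The regulator Cd55 fell, at 16.3 to 28.3 RPKM in WT and 3.93 to 5.19 RPKM in Lyn-/- mice (log2 fold change -2.05, adjusted p = 1.5e-05). The regulator Cd59a rose, at 17.8 to 24.6 RPKM in WT and 35 to 50.9 RPKM in Lyn-/- mice (log2 fold change 1.05, adjusted p = 0.000642). Cr2 had the largest fall of this list.

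Neutrophil genes rose in Lyn-/- blood, but by amounts that differed widely among the 4 mice. Of 35 mature neutrophil genes 26 rose and 2 fell, and of 17 genes of granules and precursors 14 rose and 1 fell. S100a9, an abundant cytosolic protein of neutrophils, stood at 295, 414, 379 and 268 RPKM in the WT mice and 4101, 1488, 1095 and 703 RPKM in the Lyn-/- mice (log2 fold change 2.14, SE 0.44, adjusted p = 0.00335). Ngp, a granule protein made before release from the marrow, stood at 8.98, 1.51, 3.72 and 1.61 RPKM in the WT mice and 234, 46.6, 32.7 and 42.2 RPKM in the Lyn-/- mice (log2 fold change 4.12, SE 0.62, adjusted p = 0.000527). Lactoferrin (Ltf) stood at 0.566, 0.212, 0.242 and 0.293 RPKM in the WT mice and 26.2, 5.46, 5.54 and 3.19 RPKM in the Lyn-/- mice (log2 fold change 3.24, SE 0.48, adjusted p = 0.000512). In each of these genes every Lyn-/- mouse was above every WT mouse, and Lyn-/- mouse 1 stood far above the other 3.

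Mouse 1 was the highest and mouse 4 the lowest Lyn-/- mouse in 25 of the 35 mature neutrophil genes and 10 of the 17 granule genes. Over all genes tested that order was seen in 16.4%. The markers of neutrophils summed to 7484, 2795, 1968 and 1320.0 RPKM in the Lyn-/- mice and 652, 898, 780.1 and 549 RPKM in the WT mice, with 4 of the 7 tested markers higher, 0 lower, and S100a8 and S100a9 the bulk of the sum. The part of neutrophils in the order of other genes was not tested. Genes with the largest SD among Lyn-/- mice, at a mean of at least 5 RPKM, had this order. Ifitm1 stood at 17.4, 25.3, 22.6 and 16.9 RPKM in the WT mice and 352, 72.3, 60.8 and 21.3 RPKM in the Lyn-/- mice (log2 fold change 1.88, SE 0.63, adjusted p = 0.0368). Wfdc17 stood at 10.9, 8.07, 11.3 and 13.7 RPKM in the WT mice and 243, 69.4, 53 and 12.1 RPKM in the Lyn-/- mice (log2 fold change 2.36, SE 0.66, adjusted p = 0.0176). Mouse 4 lay inside the WT range in both. Ifitm1 had an adjusted p of 0.00307 to 0.0855 with 1 mouse left out. Lrg1 (134, 38.1, 28.6 and 12.3 RPKM in Lyn-/- mice), Stfa2l1 (53.2, 13.8, 15 and 5.28 RPKM) and Camp (58, 20.6, 8.07 and 5.84 RPKM) had the same order of mice 1 and 4. Csf3r, the receptor for the neutrophil growth factor, was called with overlapping groups (17.8 to 36.7 RPKM in WT and 35.2 to 149 RPKM in Lyn-/- mice, log2 fold change 1.15, adjusted p = 0.045, adjusted p of 0.0219 to 0.124 with 1 mouse left out). Cxcr2 was not called (log2 fold change 1.06, adjusted p = 0.0579). Mice of 1 genotype differed from each other more in Lyn-/- blood for most genes tested. The SD was larger among Lyn-/- than among WT mice for 5969 genes (72.5%), with medians of 0.29 and 0.20 on the log2 scale. That share was 62.8% without Lyn-/- mouse 1 and 64.7% without Lyn-/- mouse 4. It was 70.3% to 76% with any other mouse left out.

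**Figure D3:**
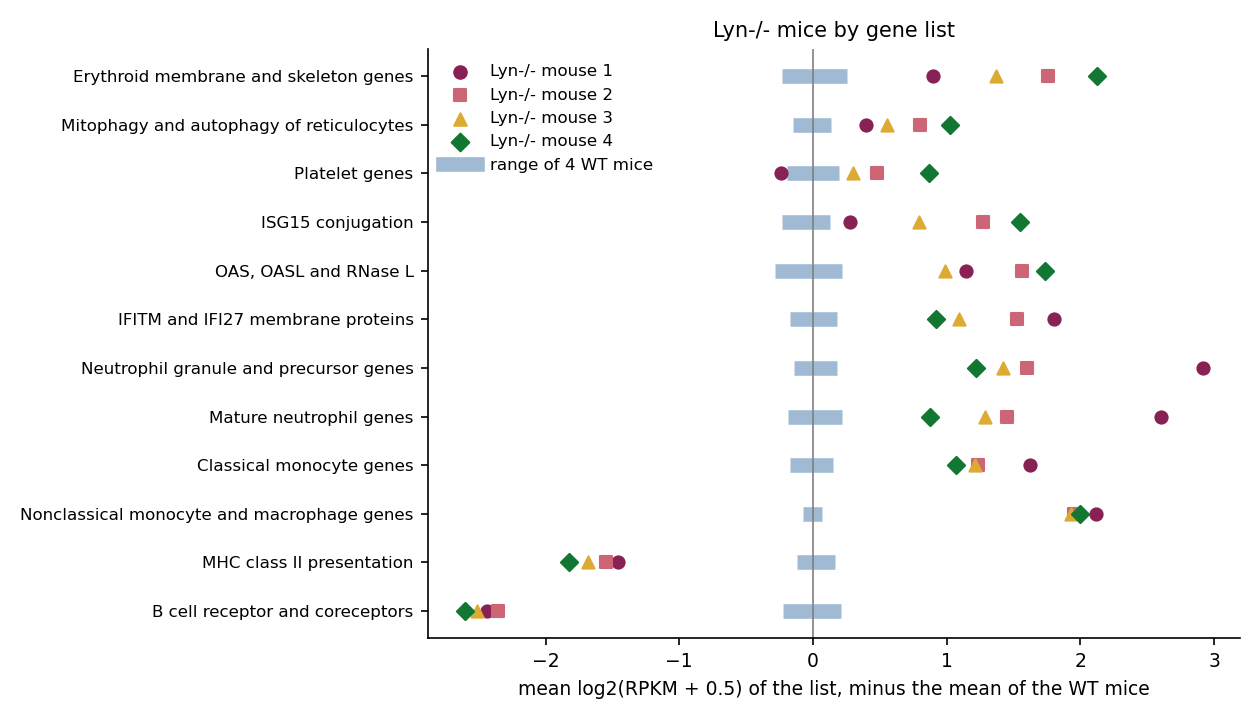
Mean log2(RPKM + 0.5) of 12 gene lists (rows) in each Lyn-/- mouse, minus the mean of the 4 WT mice (x axis); symbols are the 4 Lyn-/- mice and blue bars the range of the WT mice. Mouse 1 is highest in the neutrophil lists and lowest in the erythroid and platelet lists, mouse 4 is the reverse, and the 4 mice lie close together in nonclassical monocyte and B cell receptor genes.

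Many ISGs rose in Lyn-/- blood, with more than 1 order among the mice. In 6 lists of IFN-related genes (IFN regulatory factors, ISG15 conjugation, OAS enzymes, IFITM and IFI27 proteins, IFIT proteins and nucleic acid sensors, and guanylate binding proteins with immunity-related GTPases), 41 of 98 tested genes rose and 12 fell. Of all genes tested 20.4% rose and 16.5% fell. With hemoglobin left out of the scaling, the regulatory factors had 1 higher and 7 lower, and ISG15 conjugation 3 and 1. The OAS list then had 5 and 0, and the IFITM and IFI27 list 4 and 1. IFIT proteins and sensors had 11 and 10, the guanylate binding list 0 and 6, and all genes 645 and 3328. Isg15, a ubiquitin-like protein, stood at 347, 280.1, 298 and 217 RPKM in the WT mice and 564, 1782, 1090.0 and 2292 RPKM in the Lyn-/- mice (log2 fold change 2.16, SE 0.37, adjusted p = 0.00124). Oas3, a sensor of double-stranded RNA, stood at 9.88, 8.03, 6.69 and 4.99 RPKM in the WT mice and 16.5, 45, 32.3 and 72.9 RPKM in the Lyn-/- mice (log2 fold change 2.26, SE 0.37, adjusted p = 0.000931). Usp18, the protease that removes ISG15 and dampens IFNAR signalling, stood at 4.26, 4.11, 4.88 and 3.17 RPKM in the WT mice and 7.0, 16.9, 12.1 and 23.4 RPKM in the Lyn-/- mice (log2 fold change 1.63, SE 0.30, adjusted p = 0.00187). Irf7, the factor that amplifies type I IFN, stood at 182, 178, 210.5 and 147 RPKM in the WT mice and 288, 893, 549 and 945 RPKM in the Lyn-/- mice (log2 fold change 1.76, SE 0.33, adjusted p = 0.00202). In all 4 genes Lyn-/- mouse 4 was highest, then mice 2 and 3, and mouse 1 was lowest but above every WT mouse.

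A second group of ISGs had another order. Ifitm2, which blocks viral entry, stood at 46.4, 53.9, 55.7 and 35.9 RPKM in the WT mice and 389, 223, 173 and 145 RPKM in the Lyn-/- mice (log2 fold change 2.18, SE 0.28, adjusted p = 0.000173). Ifitm6, a myeloid member of the family, stood at 11.1, 13.5, 11.1 and 8.41 RPKM in the WT mice and 82, 43.9, 29.98 and 30.7 RPKM in the Lyn-/- mice (log2 fold change 1.93, SE 0.29, adjusted p = 0.000499). Mouse 1 was the highest in both. Another pattern was level among the mice, as in Oas1a at 2.94, 3.09, 1.58 and 2.41 RPKM in the WT mice and 10.2, 9.79, 11 and 10.2 RPKM in the Lyn-/- mice (log2 fold change 1.87, SE 0.18, adjusted p = 2.43e-05). Zbp1 stood at 8.3 to 11.4 RPKM in WT and 20.6 to 23.4 RPKM in Lyn-/- mice (log2 fold change 1.08, adjusted p = 0.000153). Parp12 stood at 0.746 to 1.26 RPKM in WT and 3.52 to 4.77 RPKM in Lyn-/- mice (log2 fold change 1.55, adjusted p = 5.11e-05). Oas1a has a close copy in Oas1g (0 to 0.292 RPKM in WT and 1.04 to 2.19 RPKM in Lyn-/- mice), with which it may share reads. Of the 41 genes that rose, 18 had mouse 4 highest and mouse 1 lowest and 6 had the reverse (43.9% and 14.6%), beside 35.2% and 19.7% of all genes called higher and 18.6% and 16.4% of all genes tested.

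The order with mouse 4 highest and mouse 1 lowest was also that of the red cell genes. It was seen in 23 of 24 erythroid membrane and skeleton genes, 21 of 26 genes of heme synthesis and iron, and 30 of 33 platelet genes. Markers of erythroid cells summed to 26273, 49101, 37955 and 61125 RPKM in the Lyn-/- mice. In the WT mice they summed to 18354, 27363, 33358 and 23317 RPKM. Alas2, the 1 tested marker not called, was the bulk of these sums (24254, 44919, 35156 and 55325 RPKM in Lyn-/- mice). Of the 7 tested markers 6 were higher and 0 lower, and all 7 had mouse 4 highest and mouse 1 lowest among Lyn-/- mice. The RPKM sum outside hemoglobin had the same order, at 298280, 454502, 359286 and 540339 in Lyn-/- mice. The part of red cell RNA or of scaling in the order of these ISGs was not tested. Among the WT mice the order was not shared, since mouse 3 had the highest erythroid sum and mouse 1 the highest Isg15, Oas3 and Ifi27l1. The ISG15 conjugating enzyme Ube2l6, also an abundant red cell transcript, stood at 5374, 8269.7, 10683 and 6856 RPKM in the WT mice and 7042, 14115, 10759 and 17826 RPKM in the Lyn-/- mice and was not called (log2 fold change 0.64, adjusted p = 0.182).

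**Figure D4:**
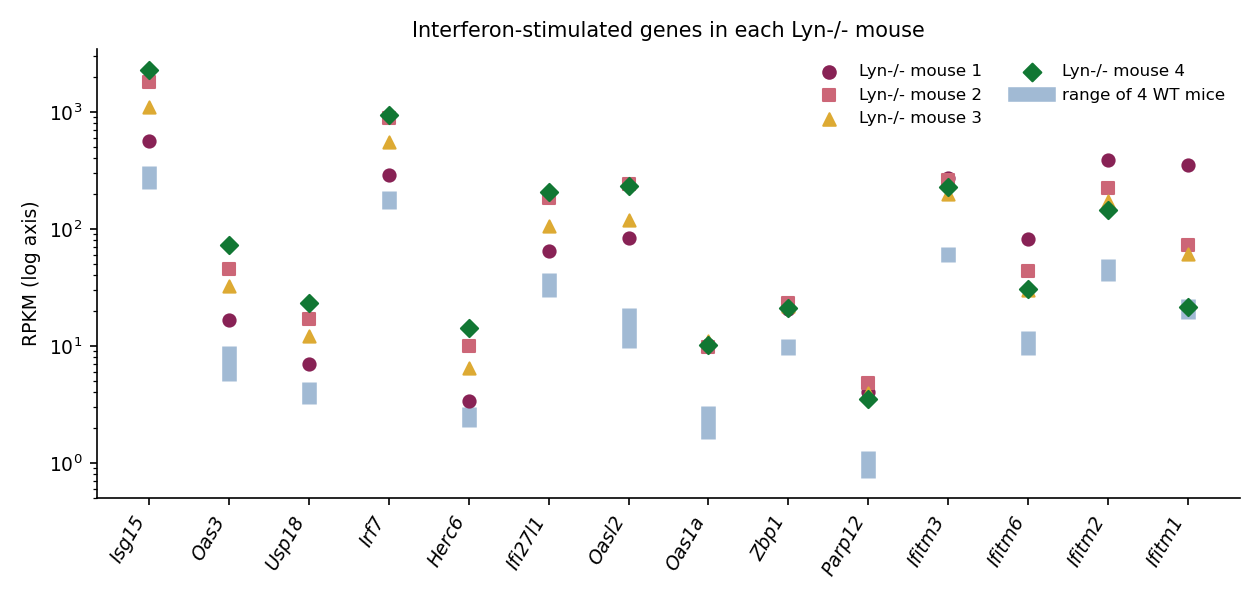
RPKM on a log axis of 14 interferon-stimulated genes (x axis) in each of the 4 Lyn-/- mice (symbols), with the range of the 4 WT mice as blue bars. Mouse 4 is highest and mouse 1 lowest in Isg15, Oas3, Usp18, Irf7, Herc6 and Ifi27l1, the mice are close together in Oas1a, Zbp1 and Parp12, and mouse 1 is highest in Ifitm2, Ifitm6 and Ifitm1.

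The IFN-induced genes can be counted by family. Of the 9 tested genes for OAS, OASL and RNase L, 6 rose and 0 fell, with a median of 1.28. Oasl2 rose furthest, at 20.9, 15, 17.4 and 9.56 RPKM in the WT mice and 83.6, 240.2, 118 and 230.5 RPKM in the Lyn-/- mice (log2 fold change 3.29, SE 0.34, adjusted p = 4.28e-05). Its relative Oasl1 was not called (1.51 to 3.57 RPKM in WT and 1.62 to 5.35 RPKM in Lyn-/- mice, log2 fold change 0.52, adjusted p = 0.22). Of 50 IFIT proteins and sensors 21 rose and 5 fell, at a median of 0.48 that turned to -0.06 with hemoglobin left out of the scaling (11 higher and 10 lower). Rsad2 (viperin), an antiviral enzyme, stood at 562, 571, 664 and 425 RPKM in the WT mice and 913, 2255, 1551 and 3186 RPKM in the Lyn-/- mice (log2 fold change 1.70, SE 0.34, adjusted p = 0.00284). Ifih1 (MDA5), which senses long double-stranded RNA, stood at 0.643 to 1.21 RPKM in WT and 2.55 to 3.91 RPKM in Lyn-/- mice (log2 fold change 1.45, adjusted p = 0.000185). Helz2 (log2 fold change -1.13, adjusted p = 0.000106) and Ifi203 (log2 fold change -1.03, adjusted p = 0.000324) fell. The guanylate binding proteins and immunity-related GTPases, which IFN-gamma induces strongly, had 3 of 15 higher and 2 lower, near the 20.4% and 16.5% of all genes tested. Their median was next to 0 (-0.47 with hemoglobin left out of the scaling, beside -0.53 for all genes). Gbp4 fell at 4.54 to 6.23 RPKM in WT and 2.25 to 2.7 RPKM in Lyn-/- mice (log2 fold change -0.98, adjusted p = 0.000448). Igtp rose at 28.3 to 36.9 RPKM in WT and 37.6 to 67.8 RPKM in Lyn-/- mice (log2 fold change 0.64, adjusted p = 0.0192, adjusted p of 0.00162 to 0.0653 with 1 mouse left out).

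Of 11 IFN regulatory factors 2 rose and 5 fell, beside 20.4% and 16.5% of all genes tested. Irf5, the partner of Lyn that Lyn holds in check, stood at 21.7, 20.8, 20.8 and 20.1 RPKM in the WT mice and 40.4, 31.3, 33.9 and 27.8 RPKM in the Lyn-/- mice (log2 fold change 0.65, SE 0.14, adjusted p = 0.00437), a rise in every Lyn-/- mouse that was not called under either scaling to an equal RPKM sum. Irf8, which B cells and dendritic cells need, fell at 21.3 to 23.7 RPKM in WT and 10.3 to 15.6 RPKM in Lyn-/- mice (log2 fold change -0.87, adjusted p = 0.00116). Irf4, of activated lymphocytes, stood at 3.31 to 5.11 RPKM in WT and 0.884 to 1.65 RPKM in Lyn-/- mice (log2 fold change -1.53, adjusted p = 0.000179). Irf9, a subunit of the complex that type I IFN activates, overlapped at 10.6 to 12.7 RPKM in WT and 11 to 12.7 RPKM in Lyn-/- mice (adjusted p = 0.983), and Irf1 was not called (log2 fold change 0.07, adjusted p = 0.68). Of the receptors, JAK kinases and STAT factors 10 of 24 rose and 1 fell, at a median of 0.21. It turned to -0.35 with hemoglobin left out of the scaling, beside -0.53 for all genes. Ifnar2, the second chain of the type I receptor, stood at 10.9, 13.4, 14.3 and 10.4 RPKM in the WT mice and 25.8, 25.9, 26.4 and 26.6 RPKM in the Lyn-/- mice (log2 fold change 1.08, SE 0.14, adjusted p = 0.000179). The feedback inhibitor Socs3 stood at 7.47 to 9.3 RPKM in WT and 17 to 42.6 RPKM in Lyn-/- mice (log2 fold change 1.47, adjusted p = 0.000802).

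Promoters of these genes are shown because the element that type I IFN acts through can be read in them. RefSeq promoter windows (GRCm38.p6, 250 bases before the start site to 50 after it) were searched on both strands for GAAA repeated after a gap of 2 bases of any kind, the core of the IFN-stimulated response element. The stretches printed here lie before the start site, read 5′ to 3′ on the gene's strand, with the matches in capitals (TTTC, gap, TTTC where the match is on the other strand). The first 4 genes rose and the last 4 were not called.
Isg15 (chr4:156200855-156200916, minus strand): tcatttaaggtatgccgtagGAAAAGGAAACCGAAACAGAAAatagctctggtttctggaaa
Oas1a (chr5:120907526-120907565, minus strand): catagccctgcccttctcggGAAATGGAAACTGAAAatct
Ifit1 (chr19:34640765-34640833, plus strand): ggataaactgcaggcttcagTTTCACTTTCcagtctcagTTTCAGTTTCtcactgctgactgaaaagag
Rsad2 (chr12:26456543-26456592, minus strand): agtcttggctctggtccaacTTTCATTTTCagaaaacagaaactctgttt
Irgm1 (chr11:48871421-48871470, minus strand): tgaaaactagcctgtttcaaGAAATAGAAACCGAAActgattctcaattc
Bst2 (chr8:71537567-71537622, minus strand): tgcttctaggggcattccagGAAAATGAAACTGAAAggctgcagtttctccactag
Gbp5 (chr3:142496749-142496798, plus strand): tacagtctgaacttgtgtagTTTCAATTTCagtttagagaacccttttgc
Ifit3 (chr19:34583353-34583436, plus strand): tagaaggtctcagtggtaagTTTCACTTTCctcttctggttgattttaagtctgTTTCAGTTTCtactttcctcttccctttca
The matches overlapped in Isg15 (3 matches), Oas1a, Irgm1 and Bst2 (2 each), where 1 repeat of GAAA serves 2 of them. In Isg15 they ran from position -78 to -57 relative to the start site. The motif was found in 3.99% of the genes in the promoter table, in 4.28% of the genes tested that the table holds, and in 32 of 74 (43.2%) of the IFN-related genes. Within the IFN-related genes it was found in 15 of 30 that rose (50%), 15 of 36 that were not called (41.7%) and 2 of 8 that fell (25%). Of 10 guanylate binding proteins and GTPases with a window 9 held it. The genes with a match thus include Isg15 with a log2 fold change of 2.16 as well as Irgm1 with 0.22 (adjusted p = 0.452), Bst2 with 0.18 (adjusted p = 0.388), Gbp5 with -0.22 (adjusted p = 0.322) and Ifit3 with 0.71 (adjusted p = 0.0814). Oasl2, Irf7 and Herc6, which rose, had no match to these letters in the window. Of the nonclassical monocyte genes and the erythroid skeleton genes in the table, 0 of 19 and 0 of 15 held the motif.

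Red cell genes rose as well. Of 24 genes of the erythroid membrane and skeleton 21 rose and 0 fell, 20 of them under all 4 scalings, with a median log2 fold change of 1.76. Reticulocytes, the young red cells, still hold such RNA, which mature red cells lose. Slc4a1, the anion exchanger band 3, stood at 314, 391, 476 and 270.4 RPKM in the WT mice and 837, 1646, 1216 and 2302 RPKM in the Lyn-/- mice (log2 fold change 1.98, SE 0.30, adjusted p = 0.000553). Rhag, part of the Rh complex, stood at 2.2, 1.51, 2.3 and 2.31 RPKM in the WT mice and 6.9, 12.2, 10.1 and 19.4 RPKM in the Lyn-/- mice (log2 fold change 2.22, SE 0.26, adjusted p = 0.000113). The transferrin receptor Tfrc, which reticulocytes shed as they mature, stood at 3.66, 3.14, 3.25 and 2.23 RPKM in the WT mice and 9.42, 17.4, 11.5 and 25.3 RPKM in the Lyn-/- mice (log2 fold change 2.12, SE 0.27, adjusted p = 0.000183). Of the heme and iron genes 13 rose and 2 fell of 26. Alas2, the first enzyme of heme synthesis in red cells, was not called, at 17492 to 32223 RPKM in WT and 24254 to 55325 RPKM in Lyn-/- mice (log2 fold change 0.67, adjusted p = 0.211), but was called higher with libraries set to the same RPKM sum (0.41, adjusted p = 0.00114). Beta-s, the major hemoglobin gene, was the most abundant transcript and was not called (log2 fold change 0.06, adjusted p = 0.963), but fell under that scaling (-0.20, adjusted p = 0.00109).

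Genes that clear mitochondria and organelles from reticulocytes rose in 20 of 39 cases and fell in 0. The receptor Sqstm1 (p62) stood at 78.2, 89.3, 84.4 and 65.6 RPKM in the WT mice and 196, 330.5, 266 and 476 RPKM in the Lyn-/- mice (log2 fold change 1.93, SE 0.24, adjusted p = 0.000165). Bnip3l (NIX), the mitophagy receptor of reticulocytes, was not called at 1224 to 1836 RPKM in WT and 1558 to 3851 RPKM in Lyn-/- mice (log2 fold change 0.76, adjusted p = 0.0581). It was called with the same RPKM sum, with a mean of at least 5 RPKM required, without a variance trend, with array weights and without Lyn-/- mouse 1 (adjusted p of 0.00151, 0.0467, 0.0427, 0.0142 and 0.00617). Genes of heme breakdown and peroxide defence, taken as 1 list, rose in 25 of 33 cases. Gpx1, a glutathione peroxidase and among the 5 most abundant transcripts, rose at 7346 to 11319 RPKM in WT and 13322 to 30989.9 RPKM in Lyn-/- mice (log2 fold change 1.14, adjusted p = 0.0277, adjusted p of 0.00457 to 0.0906 with 1 mouse left out). Mki67, a mark of dividing cells, rose at 0.611 to 0.957 RPKM in WT and 1.7 to 6.42 RPKM in Lyn-/- mice (log2 fold change 1.74, adjusted p = 0.00106). Of 22 cell cycle genes 8 rose and 2 fell, beside 20.4% and 16.5% of all genes tested, at a median of 0.12. That median turned to -0.45 with hemoglobin left out of the scaling, beside -0.53 for all genes. In 7 of the 8 that rose mouse 4 was highest and mouse 1 lowest, beside 35.2% of all genes called higher.

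Platelet genes gave no firm direction. Of 33 tested 7 rose and 0 fell, beside 20.4% and 16.5% of all genes tested, but none was called under all 4 scalings. With hemoglobin left out of the scaling the median went from 0.36 to -0.23, with 9 genes lower and 0 higher. The median of all genes was -0.53 there. Pf4, a chemokine of platelet granules, stood at 542, 559, 681 and 516 RPKM in the WT mice and 491, 692, 651 and 820.5 RPKM in the Lyn-/- mice (log2 fold change 0.19, SE 0.19, adjusted p = 0.457), with overlapping groups. Platelet markers summed to 1735, 2942, 2361 and 3609.5 RPKM in Lyn-/- and 2023, 2038, 2366 and 1845 RPKM in WT mice.

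T cell and NK cell genes had medians nearer to 0 than B cell genes. Of 23 genes of the T cell receptor and its coreceptors 13 fell and 0 rose, with a median of -0.49, and of 19 naive T cell genes 11 fell. Cd3e, a chain of the receptor complex, stood at 40.3, 50.5, 47.7 and 56.1 RPKM in the WT mice and 33.8, 33.4, 37.2 and 30.7 RPKM in the Lyn-/- mice (log2 fold change -0.51, SE 0.14, adjusted p = 0.0149, and adjusted p = 0.0566 without WT mouse 4). Cd8a was below WT in every Lyn-/- mouse and was not called (log2 fold change -0.26, adjusted p = 0.131). S1pr1, the receptor by which naive lymphocytes leave lymph nodes, fell further and evenly, at 31.1, 31, 29.2 and 35.9 RPKM in the WT mice and 12.6, 12.9, 13.3 and 13.1 RPKM in the Lyn-/- mice (log2 fold change -1.25, SE 0.12, adjusted p = 2.54e-05). B cells also express S1pr1, and whether its fall differs from that of Cd3e was not tested. T cell markers summed to 215, 272, 214 and 284 RPKM in WT and 176, 183, 214 and 154 RPKM in Lyn-/- mice, and the genotypes did not overlap, although the nearest mice of each stood at 214 RPKM.

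Of 24 NK cell genes 11 fell and 2 rose. Ncr1 (NKp46), a receptor that defines NK cells, stood at 4.55, 4.98, 6.36 and 7.32 RPKM in the WT mice and 1.32, 1.2, 1.18 and 2.39 RPKM in the Lyn-/- mice (log2 fold change -1.66, SE 0.22, adjusted p = 0.000198). Gzma, a granzyme, stood at 51.6, 48.4, 53.8 and 59.4 RPKM in the WT mice and 17.3, 13, 25.5 and 41.3 RPKM in the Lyn-/- mice (log2 fold change -1.25, SE 0.29, adjusted p = 0.00641). Prf1 (perforin) overlapped between genotypes with its highest value in Lyn-/- mouse 4 (4.02, 1.71, 4.87 and 7.87 RPKM in Lyn-/- mice, log2 fold change -0.59, adjusted p = 0.173). The 2 that rose, S1pr5 (log2 fold change 1.53, adjusted p = 0.000393) and Cd244 (log2 fold change 1.25, adjusted p = 0.0012), are also expressed by monocytes.

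Several broad gene classes moved by little or with the scaling. Of all genes tested 20.4% rose and 16.5% fell, at a median of -0.02. With hemoglobin left out of the scaling that median was -0.53, with 645 genes higher and 3328 lower. Of 33 genes of OXPHOS complex I 9 rose and 0 fell at a median of 0.30, which became -0.27 with hemoglobin left out of the scaling, with 1 higher and 3 lower. Of 41 genes of complexes II to V 16 rose at a median of 0.44, which became -0.15. Of 73 cytosolic ribosomal protein genes 10 fell and 0 rose at a median of -0.20, and all 73 were lower with hemoglobin left out. Lysosomal genes rose in 33 of 51 cases and fell in 0, at a median of 0.60 and of 0.06 with hemoglobin left out. The macrophage protein Cd68 led them, at 13, 14.2, 16.2 and 10.9 RPKM in the WT mice and 99.2, 71.6, 68.8 and 71.1 RPKM in the Lyn-/- mice (log2 fold change 2.47, SE 0.17, adjusted p = 2.05e-06). Glycolytic enzymes rose in 15 of 27 cases, but in 5 with the same RPKM sum and 3 with hemoglobin left out. NF-kB genes rose in 10 of 31 (a median of 0.16, and -0.40 with hemoglobin left out) and genes of the IL-6 receptor and STAT3 in 17 of 26, but in 5 under either equal sum.

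**Figure D5:**
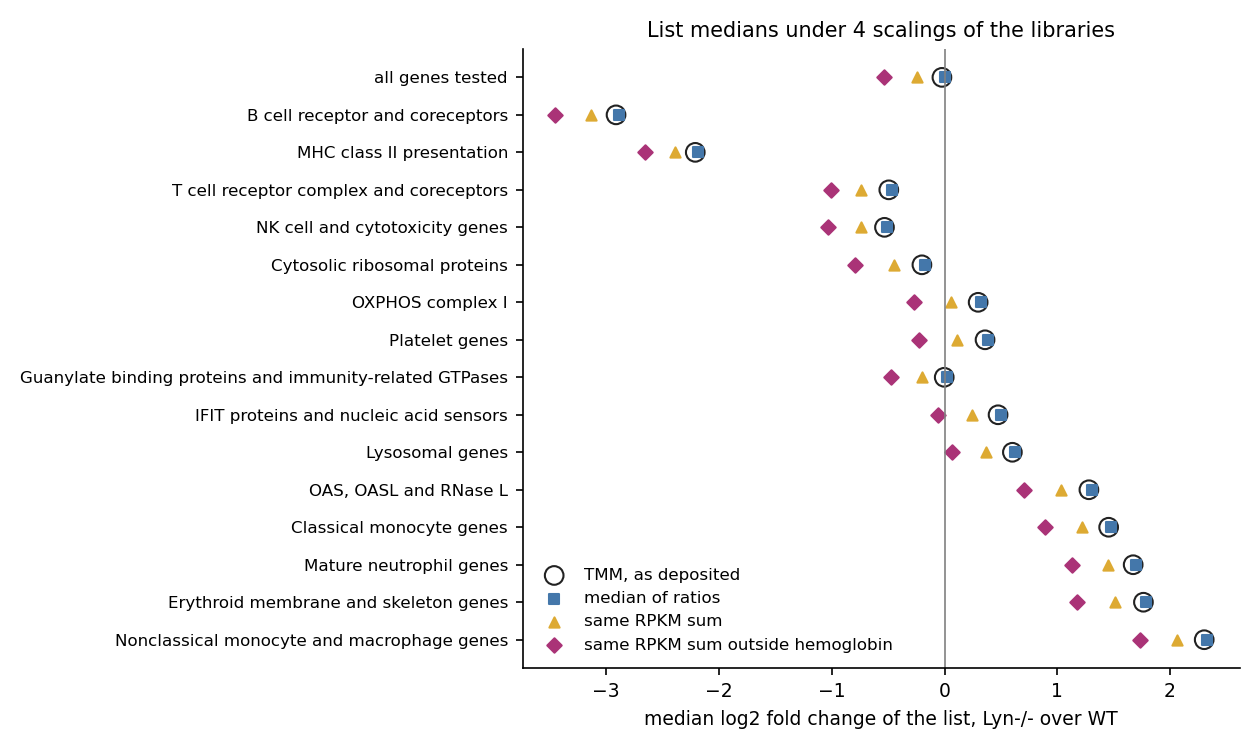
Median log2 fold change of Lyn-/- over WT (x axis) for all genes tested and 15 gene lists (rows) under 4 scalings of the libraries (symbols). B cell and class II lists stay below 0 and nonclassical monocyte, erythroid, neutrophil and OAS lists above 0 under all 4. Platelet, OXPHOS complex I and IFIT lists fall below 0 once hemoglobin is left out, where the median of all genes is -0.53.

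The largest rise among named genes was that of Apol11a, an apolipoprotein L of unclear role, at 2.74, 4.12, 2.64 and 1.66 RPKM in the WT mice and 24.1, 117, 56.4 and 89.2 RPKM in the Lyn-/- mice (log2 fold change 4.29, SE 0.41, adjusted p = 2.65e-05). Tgm2, a transglutaminase of macrophages, stood at 1.19, 4.1, 2.72 and 2.04 RPKM in the WT mice and 22.7, 22.2, 26.2 and 27.7 RPKM in the Lyn-/- mice (log2 fold change 3.15, SE 0.26, adjusted p = 7.96e-06). Erdr1, a gene of the pseudoautosomal region of the sex chromosomes, stood at 0.571, 0.75, 0.428 and 0 RPKM in the WT mice and 7.09, 7.36, 6.66 and 8.44 RPKM in the Lyn-/- mice (log2 fold change 3.15, SE 0.26, adjusted p = 7.83e-06), with the 4 Lyn-/- mice close together. Some transcripts were seen in 1 genotype almost alone. With less than 0.3 RPKM in every mouse of 1 genotype and more than 1 RPKM in every mouse of the other, 5 genes were found in Lyn-/- and 6 in WT blood. Mmp14, a membrane protease of macrophages, was listed at 0 in all 4 WT mice and at 2.33, 2.2, 2.52 and 1.35 RPKM in the Lyn-/- mice. Oas1g, Cfb, Megf9 and the gene model 4930506M07Rik were the others in Lyn-/- blood. Cr2, Stac2, Marveld2, Cacna1i, Ell3 and Hepacam2 were those in WT blood, and Cacna1i, a calcium channel, stood at 2.63, 2.53, 2.78 and 2.65 RPKM in WT and 0.169, 0.135, 0.141 and 0.134 RPKM in Lyn-/- mice. These 11 genes were chosen after their values were seen.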

How the data were processed

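Total RNA of peripheral blood was sequenced by the authors as stranded libraries, and per the labels the reads were handled with bcl2fastq, STAR, featureCounts and edgeR on the mouse build mm10. The deposited values are RPKM, made by the authors from gene counts with TMM scaling, in a table of 9228 genes and 20 libraries. RPKM were tested as log2(RPKM + 0.5) in limma 3.58.1 (R 4.3.3) with a variance trend and Benjamini-Hochberg adjustment at 0.05, for genes that 4 or more of the 8 libraries of WT and Lyn-/- mice held at 1 RPKM or more. The 12 other libraries entered only 1 alternative. Whole reads were recovered from the RPKM steps within 0.05 reads and gave the depth. Those of 9222 genes, without 6 very abundant ones, served for a limma-voom alternative. Tables were made in Python 3.11.15 with pandas 2.3.3 and numpy 2.4.6, and figures with matplotlib 3.10.9.

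Tested on simulated data made for this comparison over 8234 genes, limma called 67 of 100 genes changed by 1 on the log2 scale, 100 of 100 changed by 2, and 9 of 8034 unchanged genes.

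Named genes are Lyn, the 10 largest rises and 10 largest falls without overlap, the 5 most abundant, the 5 with the largest SD among Lyn-/- mice, up to 4 leading genes of each gene list, and further list members with a role worth stating. Unnamed gene models and antigen receptor segments were left out, and a few genes are not reported here. The comparison, the lists and their members were chosen with earlier results of these data known. Alternatives were other pseudocounts, filters, scalings and variance models, a replicate block, and leaving out each mouse. Equal replicate numbers did not pair the mice.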

Additional observations from a re-analysis of the deposited data

Results flagged for a closer look

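A mouse was taken to stand apart where its distance to the nearest of the 4 mice of its genotype made up more of their whole range than Dixon's critical value allows. This was so in 29 of 464 sets of 4 mice. For a single set chosen without regard to its values, chance gives about 1 in 20. Some genes here were chosen for their spread among Lyn-/- mice, and list means and marker sums share genes with them. The sets are therefore not independent, and 1 in 20 is not their chance rate. In 17 of the 29 the mouse was Lyn-/- mouse 1. The shares of the range were as follows. Among the granule and neutrophil genes Lyn-/- mouse 1 stood above the others in Ngp (0.931), Ltf (0.898), Csf3r (0.8443) and Ifitm1 (0.8457), and in the summed markers of neutrophil precursors (594 RPKM, 0.916). Among receptors and kinases it did so in Fgr (0.8757), Pilra (0.8763), Card9 (0.8325), Tlr13 (0.8629), Ifnar1 (0.9177) and the mean of the kinases and adaptors (0.8619). Among monocyte and macrophage genes it did so in Cd300e (0.9875), Ly6c2 (0.9114), Lyz2 (0.8702), Scarb1 (0.9148), Cd68 (0.9084) and the mean of the inflammasome genes (0.8641).

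Other Lyn-/- mice stood apart in H2-DMb2 (mouse 2, 0.8945), Ikzf3 (mouse 2, 0.9244), Ncr1 (mouse 4, 0.8852), Megf9 (mouse 4, 0.839) and Ell3 (mouse 3 at 0.206 RPKM, share 1). WT mice stood apart in Cd180 (mouse 1, 0.8461), H2-DMb1 (mouse 1, 0.8362), Mefv (mouse 1, 0.8952), Ifi27l1 (mouse 1, 0.9828), Oas1g (mouse 2 at 0.292 RPKM, share 1), Rhag (mouse 2, 0.8654) and Lyz2 (mouse 4, 0.9003). For Ell3 and Oas1g the other 3 mice were at 0 RPKM.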

How the results depend on the processing

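Counts of calls moved most with the filter and the scaling. With a mean of at least 5 RPKM required, 1810 genes were called and 546 were lower. With every library set to the same RPKM sum, 1604 were called, 809 higher and 795 lower, and with hemoglobin left out of that sum 645 were higher and 3328 lower. Leaving out 1 mouse gave 903 to 1432 lower genes, with WT mouse 4 and Lyn-/- mouse 1 at the ends. The log2 fold change of Lyn stayed between -1.83 and -1.67 with 1 mouse left out. A replicate block gave 1532 higher and 1104 lower genes and ended only the call of Pou2f2 among 178 named genes. The same-numbered mice correlated at 0.1125, 0.0383, -0.1269 and -0.1697. Of those 178 genes all kept their call under the pseudocounts of 0.1 and 1.

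Some log2 fold changes turned sign. With hemoglobin left out of the sum these were Fyn (-0.31), Ptpn6 (-0.22), Inpp5d (-0.30), Pou2f2 (-0.15), Ifi30 (-0.33), Abcg1 (-0.081), Irf1 (-0.49), Irgm1 (-0.35), Bst2 (-0.39), Beta-s (-0.53, adjusted p = 0.000764 in limma) and Pf4 (-0.40, adjusted p = 0.0171 in limma). With the same RPKM sum these were Irf1 (-0.17), Irgm1 (-0.021), Bst2 (-0.063), Beta-s (-0.20) and Pf4 (-0.060), and with the median of ratios Irf9 (0.022). With 1 mouse left out the ranges were -0.30 to 0.064 for Maf, -0.40 to 0.017 for Cd9, -0.14 to 0.045 for Slc15a4, -0.047 to 0.036 for Irf9, -0.12 to 0.27 for Beta-s and -0.46 to 0.066 for Src. Genes not called became called, in limma, without Lyn-/- mouse 1 (Fcgr2b, Ube2l6 and Bnip3l, adjusted p = 0.0216, 0.0369 and 0.00617), mouse 3 (Lck and Oasl1, 0.0419 and 0.0236) or mouse 4 (Ptpn6, Cd81, Cxcr2 and Prf1, 0.0202, 0.046, 0.0145 and 0.03), and without WT mouse 1 (Ifit3, 0.0406). With all 20 libraries in the model the calls of Cd59a, Igtp, Gpx1 and Pou2f2 were lost (adjusted p of 0.0628, 0.0664, 0.0666 and 0.06) and Cxcr2 was called (0.0361). Genes not called became called with the same RPKM sum (Cd81 and Cd9 lower, Ube2l6, Alas2 and Bnip3l higher) or with hemoglobin left out of it (Lck, Csk, Fcgr2b, Cd81, Cd9, Trim21, Unc93b1, Gbp5, Cd8a and Prf1, all lower). Counts of higher genes in the lists also shrank under the same RPKM sum and with hemoglobin left out of it. They went to 4 and 4 of 7 kinases and adaptors, 1 and 0 of 5 class I genes and 14 and 13 of 19 classical monocyte genes. Fc receptors had 3 and 3 of 5, Toll-like receptors 6 and 6 of 10 and complement genes 5 and 5 of 9. Mature neutrophil genes had 17 and 17 of 26, IFIT and sensor genes 14 and 11 of 21, and IFN receptor and STAT genes 4 and 2 of 10. Mitophagy genes had 17 and 9 of 20, heme breakdown and peroxide defence genes 19 and 13 of 25 and platelet genes 2 and 0 of 7. OXPHOS complexes II to V had 5 and 1 of 16, lysosomal genes 13 and 10 of 33 and inflammasome genes 4 and 4 of 9. Counts of lower T cell receptor genes went from 13 to 5 and 21. For all these changes beyond the scalings' own shift and the fewer mice the cause was not tested.

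With 4 mice a genotype and a median of 23 to 49 reads per gene and mouse, changes of 1 on the log2 scale may be missed in part, and intervals for single low genes are wide. Bulk levels cannot separate cell numbers from RNA per cell.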

Other observations

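Pattern receptors of phagocytes rose alongside the monocyte genes. Of 19 tested C-type lectins and pattern receptors 15 rose and 0 fell in limma, beside 20.4% and 16.5% of all genes tested. Clec4n (dectin-2), a receptor for fungal mannans, stood at 1.25, 1.87, 1.07 and 0.645 RPKM in the WT mice and 13.3, 8.84, 11.4 and 4.91 RPKM in the Lyn-/- mice (log2 fold change 2.53, SE 0.30, adjusted p = 0.000105). Clec4a1 of the same cluster rose as well (5.84 to 8.41 RPKM in WT and 39.8 to 53.1 RPKM in Lyn-/- mice, log2 fold change 2.65, adjusted p = 9.91e-07). Of 24 integrins and adhesion genes 15 rose and 2 fell, with 5 and 2 under the same RPKM sum and 4 and 4 with hemoglobin left out of it. Itgax (CD11c), a chain of a complement receptor, stood at 1.54, 2.61, 2.64 and 2.06 RPKM in the WT mice and 10.6, 7.76, 7.29 and 9.23 RPKM in the Lyn-/- mice (log2 fold change 1.77, SE 0.18, adjusted p = 4.27e-05), while Icam2, an adhesion ligand of lymphocytes and platelets, fell (12.5 to 17.9 RPKM in WT and 7.71 to 8.8 RPKM in Lyn-/- mice, log2 fold change -0.80, adjusted p = 0.00143). Of 15 inflammasome and IL-1 genes 9 rose and 1 fell, with Mefv (pyrin) at 0.709 to 0.947 RPKM in WT and 2.41 to 8.48 RPKM in Lyn-/- mice (log2 fold change 1.84, adjusted p = 0.000752).

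Carriers of red cells and myeloid cells and enzymes of the ubiquitin system rose in many cases. Of 36 solute carriers 21 rose and 3 fell. Slc11a1 (NRAMP1), which pumps metal out of the phagosome, stood at 4.91, 6.45, 5.19 and 5.0 RPKM in the WT mice and 37.8, 27.1, 28.8 and 26.7 RPKM in the Lyn-/- mice (log2 fold change 2.37, SE 0.15, adjusted p = 1.56e-06). Slc6a9, the glycine transporter that feeds heme synthesis in red cells, stood at 3.53, 2.76, 4.98 and 2.94 RPKM in the WT mice and 8.34, 18.8, 13.4 and 22.4 RPKM in the Lyn-/- mice (log2 fold change 1.94, SE 0.28, adjusted p = 0.000398). Mouse 4 was the highest and mouse 1 the lowest Lyn-/- mouse in 21 of the 22 genes of the ubiquitin system that rose (beside 35.2% of all genes called higher), of 45 tested. Cul4a, a ubiquitin ligase scaffold, stood at 15.6, 18.1, 22.3 and 11.7 RPKM in the WT mice and 24.5, 63.6, 43.3 and 96.9 RPKM in the Lyn-/- mice (log2 fold change 1.59, SE 0.35, adjusted p = 0.00543). Ccr6, a chemokine receptor of B cells and some T cells, fell at 3.84, 3.08, 3.84 and 3.47 RPKM in the WT mice and 0.397, 0, 0.332 and 0 RPKM in the Lyn-/- mice (log2 fold change -2.62, SE 0.23, adjusted p = 1.15e-05). Il5ra, the receptor chain of eosinophils, fell at 1.5 to 1.96 RPKM in WT and 0.155 to 0.619 RPKM in Lyn-/- mice (log2 fold change -1.45, adjusted p = 0.000326).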
